A study of Rattus norvegicus with 17 samples.

Results

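The interleukin-1 family was examined here through 10 genes: the ligands Il1a, Il1b, Il18 and Il33, the antagonist Il1rn, the receptors Il1r1, Il1r2, Il1rap and Il1rl1, and the soluble inhibitor Il18bp. They were chosen by gene symbol, with the brightest probe set for each gene. Of the 10 genes, 7 had a probe set in at least 1 of the comparison tables and 6 had a value on all 17 arrays, among 13178 genes with such values. Il1r2 had values in the occluded and non-occluded arteries only. Il1a, Il1b and Il1rn had no probe set in these tables, count as not detected here and were not analysed further.

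The arrays measured RNA of the middle cerebral artery (MCA) in female Wistar rats of 12 weeks and approximately 250 g. The occluded MCA (right side, 5 arrays) and the contralateral non-occluded MCA (left side, 6 arrays) came from rats that underwent transient MCA occlusion (tMCAO) under isoflurane, with a filament in place for 2 h followed by 3 h of reperfusion. The control MCA (6 arrays) came from rats without any operation, and no rat in proestrus was used. Both arteries were available from 5 rats. No sham-operated rats were among the arrays used, so occlusion cannot be told apart from surgery and anaesthesia in the comparisons with control, nor from the side of the brain between the 2 arteries.

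Ligands of the interleukin-1 family act as early alarm signals of injured tissue. They bind a ligand-specific receptor (Il1r1 for interleukin-1, Il1rl1 for interleukin-33), which then recruits an accessory chain. Il1r1 and Il1rl1 share the chain Il1rap, and the receptor of interleukin-18 uses Il18rap. The complexes signal through MyD88 and IRAK kinases to NF-kappaB. The family is held in check by decoys: Il1r2 binds interleukin-1 without signalling, a soluble splice form of Il1rl1 captures interleukin-33, and Il18bp is a secreted protein that neutralises interleukin-18. In brain arteries, endothelial cells and macrophages of the vessel wall are known responders to interleukin-1.

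The windows around the start sites of 3 members are shown because these genes were higher in the occluded MCAs and each window holds a motif searched for. They are RefSeq windows of the GRCr8 build, 250 bases before to 50 after the start, written 5′ to 3′ on the gene's strand with the motif in capitals. In Il18bp (chr1:165786906-165787205, minus strand) and Il1rap (chr11:87704212-87704511, minus strand) the capitals mark GAAA, any 2 bases and GAAA, a motif of interferon regulatory factors (IRF). In Il1r1 (chr9:50034133-50034432, plus strand) they mark a match to the NF-kappaB motif, GGG, any 3 bases and TTCC, read on the opposite strand.
Il18bp: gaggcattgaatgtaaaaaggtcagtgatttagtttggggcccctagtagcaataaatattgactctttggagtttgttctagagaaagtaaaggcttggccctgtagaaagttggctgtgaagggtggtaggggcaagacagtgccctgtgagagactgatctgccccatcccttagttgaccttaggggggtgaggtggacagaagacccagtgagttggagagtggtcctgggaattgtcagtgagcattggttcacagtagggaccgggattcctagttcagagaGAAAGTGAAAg
Il1rap: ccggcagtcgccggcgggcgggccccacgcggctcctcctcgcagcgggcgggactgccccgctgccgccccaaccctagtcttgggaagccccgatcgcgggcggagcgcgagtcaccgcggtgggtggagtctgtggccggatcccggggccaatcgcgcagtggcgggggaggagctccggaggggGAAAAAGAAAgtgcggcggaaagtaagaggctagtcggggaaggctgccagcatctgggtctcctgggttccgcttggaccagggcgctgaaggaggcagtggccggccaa
Il1r1: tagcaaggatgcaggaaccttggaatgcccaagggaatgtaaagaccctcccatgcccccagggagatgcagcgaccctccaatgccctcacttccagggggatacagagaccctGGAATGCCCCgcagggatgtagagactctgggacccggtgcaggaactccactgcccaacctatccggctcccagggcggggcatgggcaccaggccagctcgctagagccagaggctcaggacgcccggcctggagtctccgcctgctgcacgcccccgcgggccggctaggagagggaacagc
Among all 33469 windows of this length, 3.92% held the IRF motif and 5.37% the NF-kappaB motif on either strand. The IRF motif was added to the search after the windows had been read. The Il18bp match lies after the start site, beginning at base 39, and the Il1r1 match lies before it, beginning at base -135. A second Il1rap window, which overlaps the one shown, holds the same match. The window of Il1rl1 held none of the motifs searched, which also included AP-1 (TGANTCA), STAT (TTCNNNGAA) and C/EBP (TTNCNNNAA). Of all windows, 7.33% held the AP-1, 8.87% the STAT and 38.2% the C/EBP motif. Members that were not called or not detected held matches too. These were AP-1 in Il18 and Il1a, C/EBP in Il1a, Il1b, Il1rn and both Il33 windows, and NF-kappaB in Il1rn. Matches were thus not particular to the members that rose. These matches are letters in a window and no measure of binding. Il1r2 had no window to search.

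Among the 2 measured ligands, neither Il18 nor Il33 passed the test in any of the 3 comparisons. Il18 encodes a ligand that is stored as a precursor and cut by caspase-1. It lies on chromosome 8 (53936584 to 53943230, plus strand) in the deposited annotation, for which the sources used here name no genome build. On the log2 scale of the arrays the control MCAs ranged from 4.79 to 8.05 with a median of 6.95. The non-occluded MCAs ranged from 5.15 to 7.37 with a median of 6.61. The occluded MCAs of rats F12, F10, F8, F15 and F33 had 6.38, 6.65, 7.48, 6.86 and 7.67. All 3 groups overlapped, and every occluded artery lay inside the range of the controls. The log2 fold change was 0.19 for occluded against control (95% interval -0.89 to 1.27, limma adjusted p = 0.809) and 0.47 for occluded against non-occluded (-0.61 to 1.56, adjusted p = 0.523). These intervals include changes of more than 2-fold in the upward direction, so a change of that size was not excluded with this spread.

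In the arteries of the same rat, Il18 was 5.15 in the non-occluded and 6.65 in the occluded MCA of F10, 6.24 and 6.86 in F15, 6.37 and 6.38 in F12, 6.84 and 7.48 in F8, and 7.21 and 7.67 in F33. Within the 5 rats that gave both arteries the occluded MCA was higher by 0.64 ± 0.54 (SD, n = 5), with differences from 0.01 to 1.5. The direction was the same in 5 of 5 rats, and the two-sided exact permutation test over sign flips gave p = 0.0625, which is the smallest value that 5 pairs allow. With the rat as a fixed replicate block in limma, the difference of 0.64 had an adjusted p of 0.0204, whereas with a random replicate block for the rat the difference was 0.53 and the adjusted p was 0.345. Il18 was therefore called only with the fixed block, and over all alternatives its adjusted p ranged from 0.0204 to 0.806. The unpaired difference of 0.47 was 0.20 without the non-occluded array of F10 (adjusted p = 0.806) and 0.31 without the occluded array of F33 (adjusted p = 0.728).

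Il33 encodes a nuclear cytokine that is released from damaged endothelial and other barrier cells. It lies on chromosome 1 (233670801 to 233685798, plus strand). The control MCAs ranged from 7.19 to 8.63 with a median of 8.20, and the non-occluded MCAs from 6.53 to 8.20 with a median of 7.53. The occluded MCAs had 8.10 (F12), 6.47 (F10), 7.08 (F8), 6.66 (F15) and 8.04 (F33). Of the 5 occluded arteries, 3 lay below every control and 2 lay within the control range. The log2 fold change was -0.87 for occluded against control (95% interval -1.60 to -0.14), and the limma adjusted p of 0.0536 missed the threshold of 0.05. It was -0.73 for non-occluded against control (interval -1.42 to -0.03, adjusted p = 0.245). The test of occluded against control passed the threshold when the rat entered as a random replicate block (-0.85, adjusted p = 0.0447), and over all alternatives its adjusted p ranged from 0.0183 to 0.155. It also passed without control F26 (-1.06, adjusted p = 0.0183), without occluded F12 (-1.08, 0.0208) or F33 (-1.06, 0.0258), and without non-occluded F8 (-0.87, 0.0434) or F33 (-0.87, 0.047). Between the 2 arteries the difference was -0.14 (interval -0.87 to 0.59, adjusted p = 0.799).

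**Figure D1:**
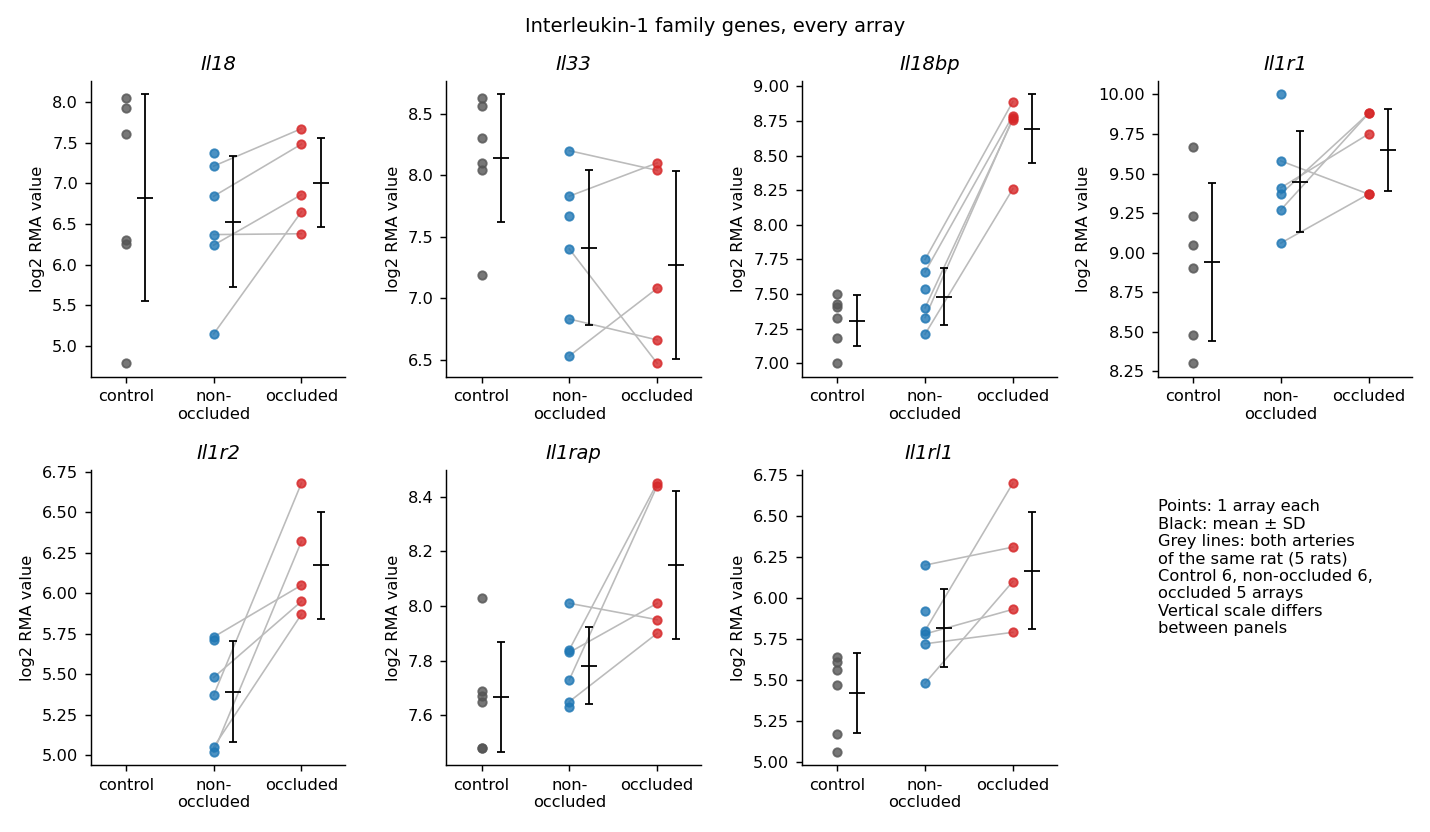
Log2 RMA value of each measured member on every array, by group (control 6, non-occluded 6 and occluded 5 arrays). Points are arrays, black marks give mean ± SD, grey lines join the arteries of the same rat, and the vertical scale differs between panels. The 5 occluded values of Il18bp, from 8.26 to 8.89, lie above all other arrays, while the Il18 groups overlap.

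Il18bp, the soluble inhibitor of interleukin-18, had the largest difference of the 6 members tested. It lies on chromosome 1 (159471809 to 159473288, minus strand). The control MCAs ranged from 7.00 to 7.50 with a median of 7.37, and the non-occluded MCAs from 7.21 to 7.75 with a median of 7.47. The occluded MCAs had 8.26 (F12), 8.89 (F10), 8.76 (F8), 8.79 (F15) and 8.77 (F33). All 5 occluded values lay above every other array. Il18bp rose 2.61-fold over control (log2 fold change 1.39, standard error 0.12, limma adjusted p = 7.87e-08) and 2.32-fold over the non-occluded MCA (1.21, standard error 0.12, adjusted p = 7.02e-07). In the non-occluded MCA itself the difference from control was 0.17 (95% interval -0.07 to 0.41, adjusted p = 0.446). Within rats the occluded artery was higher by 1.23 ± 0.17 (SD, n = 5), and the smallest of the 5 differences was 1.05. The spread of these within-rat differences was the lowest among the members.

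The signalling receptor of interleukin-1, Il1r1, lies on chromosome 9 (39433337 to 39473646, plus strand). The control MCAs ranged from 8.30 to 9.67 with a median of 8.97, and the non-occluded MCAs from 9.06 to 10.00 with a median of 9.39. The occluded MCAs had 9.37 (F12), 9.88 (F10), 9.37 (F8), 9.75 (F15) and 9.88 (F33). Of the 5 occluded arteries, 3 exceeded every control. Il1r1 rose 1.64-fold in the occluded MCAs (log2 fold change 0.71, standard error 0.21, limma adjusted p = 0.0113). In the non-occluded MCAs the log2 fold change over control was 0.51 (95% interval 0.09 to 0.93), which did not pass the test (adjusted p = 0.179). Between the 2 arteries the difference was 0.20 (interval -0.24 to 0.65, adjusted p = 0.505). Within rats it was 0.31 ± 0.31 (SD, n = 5), higher in the occluded artery of 4 of 5 rats. With the rat as a fixed replicate block in limma the adjusted p was 0.0554, so no difference between the arteries passed the test.

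Il1rap, the accessory chain that the receptors of interleukin-1 and interleukin-33 share, lies on chromosome 11 (76092252 to 76222567, minus strand). The control MCAs ranged from 7.48 to 8.03 with a median of 7.66, and the non-occluded MCAs from 7.63 to 8.01 with a median of 7.78. The occluded MCAs had 8.01 (F12), 8.44 (F10), 7.95 (F8), 7.90 (F15) and 8.45 (F33). The arteries of F10 and F33 lay above every other array, and the other 3 overlapped with the highest control and non-occluded values. Il1rap rose 1.40-fold over control (log2 fold change 0.49, standard error 0.12, limma adjusted p = 0.00303) and 1.29-fold over the non-occluded MCA (0.37, standard error 0.12, adjusted p = 0.024). The difference between the arteries rested on single arrays. Without the occluded array of F10 it was 0.29 with an adjusted p of 0.0788, without that of F33 it was 0.29 with 0.0782, and without the non-occluded array of F15 it was 0.34 with 0.0509.

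Il1rl1, the receptor of interleukin-33 (also known as ST2), lies on chromosome 9 (39577879 to 39624781, plus strand). The control MCAs ranged from 5.06 to 5.64 with a median of 5.51, and the non-occluded MCAs from 5.48 to 6.20 with a median of 5.79. The occluded MCAs had 5.79 (F12), 6.10 (F10), 6.31 (F8), 5.93 (F15) and 6.70 (F33). All 5 occluded arteries and 5 of the 6 non-occluded arteries lay above every control. The signal was dim, with means of 5.42 in control and 6.17 in occluded MCAs on arrays with medians of 7.36 to 7.49. The control means of the T cell marker Lck and the neutrophil marker Camp were 5.38 and 5.35. Il1rl1 rose 1.68-fold in the occluded MCAs (log2 fold change 0.75, standard error 0.16, limma adjusted p = 0.000832). The non-occluded MCAs had 0.40 over control (95% interval 0.08 to 0.71), with an adjusted p of 0.155 and an unadjusted two-sided exact permutation p of 0.0108. Between the arteries the difference was 0.35 (interval 0.02 to 0.68, adjusted p = 0.0985), and it passed the threshold with the rat as a replicate block, random (0.36, adjusted p = 0.0382) or fixed (0.37, adjusted p = 0.0487). It rested on single arrays, passing without non-occluded F8 (0.43, adjusted p = 0.0473) or occluded F12 (0.45, 0.0387) and dropping to 0.22 (0.289) without occluded F33. Over all alternatives the adjusted p ranged from 0.0382 to 0.289. The soluble and the membrane-bound form of the receptor share 1 probe set and were not separated.

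Il1r2, the decoy receptor of interleukin-1, lies on chromosome 9 (39279397 to 39319672, plus strand), next to Il1r1 and Il1rl1 in a stretch that also carries Il1rl2 and Il18rap. The non-occluded MCAs ranged from 5.02 to 5.73 with a median of 5.42. The occluded MCAs had 6.32 (F12), 6.68 (F10), 5.95 (F8), 6.05 (F15) and 5.87 (F33). This signal was dim too, with means of 5.39 in the non-occluded and 6.17 in the occluded MCAs. The 2 groups did not overlap, as was the case for 20.2% of the 13178 genes with values on all arrays. The occluded artery was higher in 5 of 5 rats, by 0.84 ± 0.46 (SD, n = 5). In a fit over all probe sets of that comparison the log2 fold change was 0.78 (standard error 0.17, limma adjusted p = 0.0035). By the same test 32.9% of all genes of that comparison differed in either direction. The authors' filter on low values left this probe set out of both comparisons with control, so a level in control MCAs cannot be given. The difference is not counted with those of the other members. The occluded arrays, where Il1r2 was higher, were among those that decided whether it passed the filter. The lack of overlap and the p-value are therefore description and no independent support.

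Across the members with a value on all arrays, 4 of 6 rose in the occluded MCAs over control (Il1r1, Il1rap, Il1rl1 and Il18bp), none fell and 2 did not pass the test. Of all 13178 genes, 19.3% rose and 22.8% fell in this comparison. The median log2 fold change of the 6 members was 0.60, against -0.02 over all genes. The groups did not overlap for 2 members, Il1rl1 and Il18bp, and for 25.1% of all genes. Between the occluded and the non-occluded MCAs 2 members rose (Il1rap and Il18bp), where 17.1% of all genes rose and 15.7% fell (32.8% in either direction). The groups did not overlap for Il18bp, and for 20.2% of all genes. The median log2 fold change of the members was 0.36 in that comparison.

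In the non-occluded MCAs against control 0 of 6 members passed limma, where 1.79% of all genes rose and 2.12% fell. The groups overlapped for all 6 members, and did not overlap for 3.16% of all genes. At an unadjusted p under 0.05, 3 members differed (Il33, Il1r1 and Il1rl1), and SAM at a q-value of 0 also called 0. The comparisons share arrays, since both arteries were set against the same 6 controls. With SAM, the kind of test in the study's methods and run anew here, Il18bp was the only member called in the occluded MCAs against control. Of 13809 probe sets, SAM called 1223 higher and 1105 lower there. In the non-occluded MCAs against control it called 114 higher and 67 lower. As a check that does not share the spread across genes, 26 two-sided exact permutation tests were run on the members. For occluded against control they gave 0.00216 for both Il18bp and Il1rl1, 0.0108 for Il1rap, 0.0195 for Il1r1, 0.0563 for Il33 and 0.766 for Il18, all unadjusted. The value of 0.00216 is the smallest that 5 against 6 arrays can give.

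**Figure D2:**
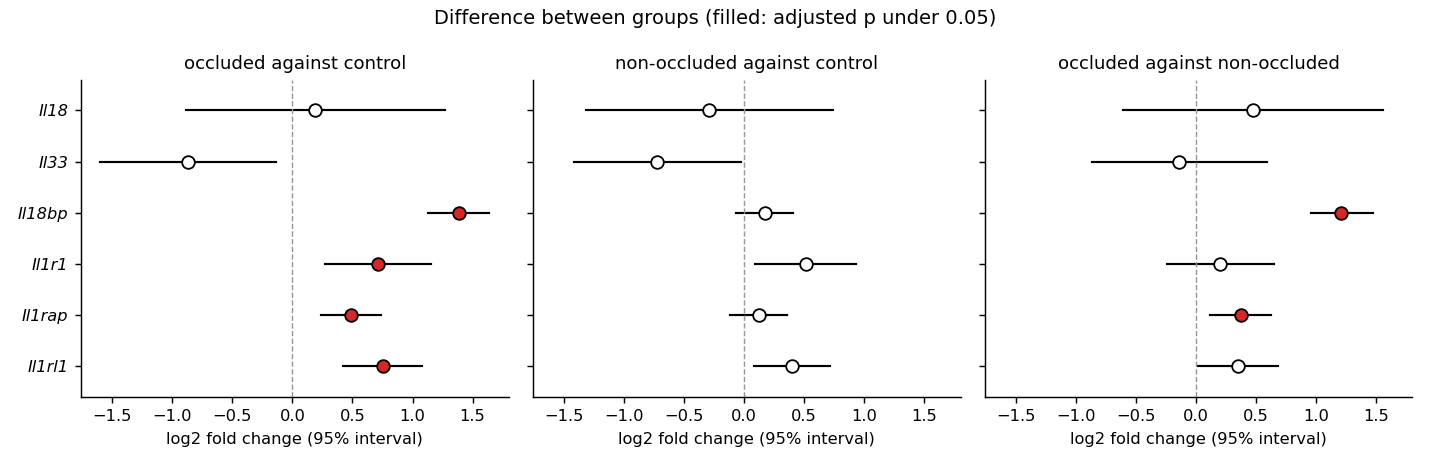
Log2 fold change (points) with its 95% interval (lines) of the 6 members with values on all arrays, in each of the 3 comparisons (5 occluded, 6 non-occluded and 6 control arrays). Filled points had a limma adjusted p under 0.05. Il18bp stands at 1.39 and 1.21 in the comparisons of the occluded MCA and at 0.17 in the non-occluded MCA.

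Members differed widely in how much they varied among arteries of the same group. The standard deviation within groups was 0.944 for Il18 and 0.636 for Il33 on the log2 scale, and the median of all genes was 0.150. Of all genes, 99.7% varied less than Il18 and 98.9% less than Il33. The lowest and the highest Il18 values were both control arteries (F4 and F26), 9.52-fold apart. Among the receptors, Il1r1 had 0.382, Il1rl1 0.279 and Il1rap 0.208, and Il18bp had 0.212. Both ligands thus had a larger spread than any of the receptors or the inhibitor.

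**Figure D3:**
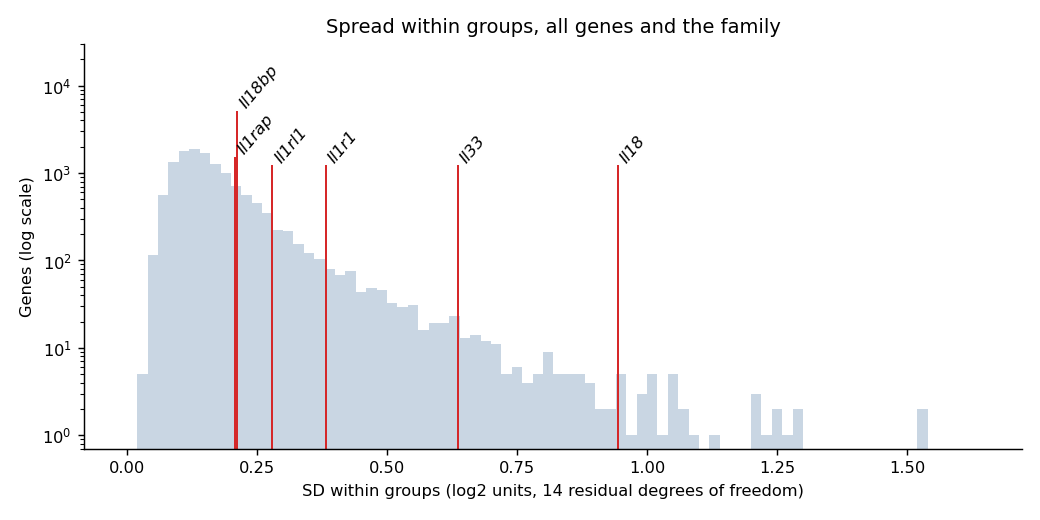
Standard deviation within groups (log2 units) over all genes with values on the 17 arrays, with the count of genes on a log scale. Red lines mark the 6 members, of which Il18 (0.944) and Il33 (0.636) lie in the upper tail.

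The level of Il18 was set beside markers of monocytes and macrophages, cells that are known to make interleukin-18. All 9 markers of that list were measured (Cd68, Cd14, Csf1r, Aif1, Cd163, Mrc1, Lyz2, Adgre1 and Ly86), and their log2 values were summed for each array. The sum ranged from 65.7 to 74.1 in control, from 67.6 to 74.8 in non-occluded and from 67.5 to 74.7 in occluded MCAs. Control arteries F21, F36 and F4 had sums of 65.7, 65.9 and 66.1, and Il18 values of 6.25, 6.30 and 4.79. Control arteries F26, F22 and F16 had sums of 72.8, 74.1 and 74.1, and Il18 values of 8.05, 7.92 and 7.61. High Il18 thus stood beside a high marker sum within a single group, but other lists divided the controls in the same way. The sums of 4 microglia markers were 26.40 to 26.81 in F21, F36 and F4 and 27.80 to 29.16 in F26, F22 and F16. Those of 4 astrocyte markers were 25.04 to 27.14 and 28.40 to 31.88, while those of 4 smooth muscle markers were 50.79 to 50.97 and 49.65 to 49.98. Between groups 2 of the 9 markers rose in the occluded MCAs over control (Cd14 and Cd163), 1 fell (Ly86) and 6 did not pass the test. In this comparison 19.3% of all genes rose and 22.8% fell. The part of these cells in the Il18 values was not tested, and in such bulk arteries fewer cells of a type and less RNA per cell cannot be told apart.

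Il33 was set beside 4 measured endothelial markers of 6 listed, Cdh5, Cldn5, Vwf and Tek. Their summed log2 values ranged from 41.95 to 42.88 in control and from 41.65 to 43.16 in non-occluded MCAs. In the occluded MCAs the sums were 42.90 (F12), 39.72 (F10), 39.98 (F8), 37.67 (F15) and 40.16 (F33). The lowest Il33 values among the occluded MCAs, 6.47 and 6.66, were those of F10 and F15, whose sums were also the lowest. F33 had an Il33 value of 8.04 beside a sum of 40.16. In the non-occluded MCAs the lowest Il33 values, 6.53 (F8) and 6.83 (F15), stood beside sums of 41.65 and 41.71. Those sums were the lowest of that group but close to the control range. Tek and Cldn5 fell in the occluded MCAs, by 1.12 and 0.98 on the log2 scale (limma adjusted p = 0.000439 and 0.00428), whereas Cdh5 and Vwf had -0.12 and -0.01. Their part in the Il33 values was not tested.

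**Figure D4:**
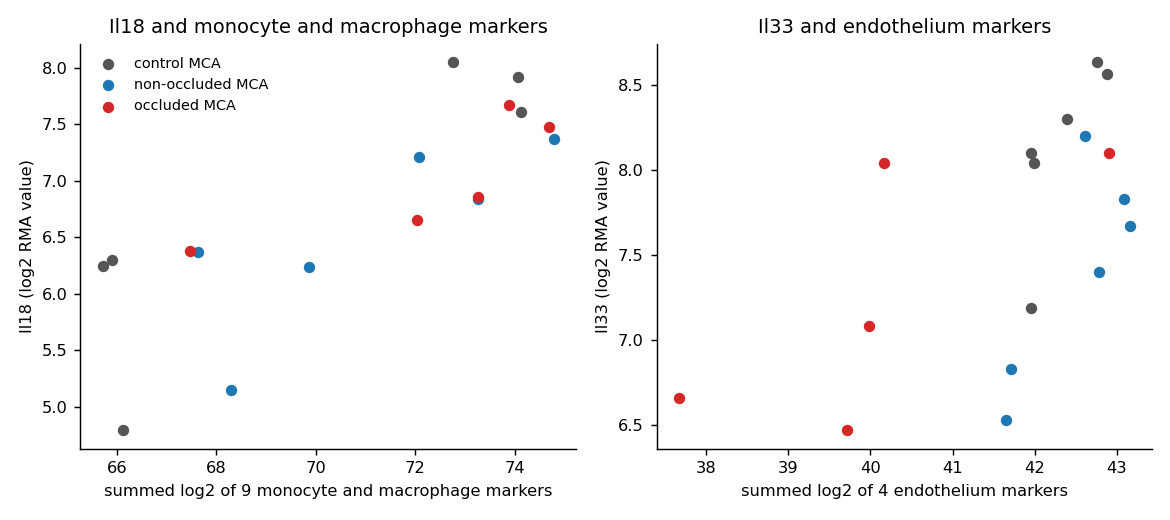
Left, Il18 (log2 RMA value) against the summed log2 values of 9 monocyte and macrophage markers on each of the 17 arrays. Right, Il33 against the sum of 4 endothelial markers. Control arteries with marker sums of 65.7 to 66.1 had the Il18 values 4.79 to 6.30, and 4 of the 5 occluded arteries had endothelial sums of 40.16 or less.

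Il1rl1 and Il1r2 are also made by blood leukocytes. Of 8 neutrophil markers listed, 3 were measured (S100a9, Csf3r and Camp), and their summed log2 values ranged from 14.99 to 15.83 in control, 15.81 to 17.65 in non-occluded and 16.26 to 18.55 in occluded MCAs. The sums of all occluded arteries lay above every control, and the lowest non-occluded sum lay within the control range. In the occluded MCAs of F12, F10, F8, F15 and F33 the neutrophil sums were 18.55, 16.65, 16.54, 16.96 and 16.26. In the same order, Il1rl1 had 5.79, 6.10, 6.31, 5.93 and 6.70, and Il1r2 had 6.32, 6.68, 5.95, 6.05 and 5.87. The macrophage sums of these arteries were 67.48, 72.04, 74.69, 73.25 and 73.88. Their microglia sums were 24.72, 25.17, 26.88, 24.10 and 26.25. S100a9 rose in the occluded MCAs by 1.49 and in the non-occluded MCAs by 1.17 on the log2 scale (limma adjusted p = 0.000216 and 0.0168). Csf3r, the receptor of the growth factor G-CSF, had 0.05 and 0.30, and Camp had 0.04 and -0.08. Neither was called, so S100a9 was the only called gene of the 3 in the neutrophil sum. Brain markers moved too, since Gfap of astrocytes rose by 2.46 in the occluded and by 1.03 in the non-occluded MCAs (adjusted p = 2.49e-06 and 0.0449). Of the other measured astrocyte markers Aqp4, Slc1a2 and Slc1a3, none passed the test. The sum of the 4 ranged from 25.04 to 31.88 in control, 26.86 to 31.55 in non-occluded and 29.31 to 35.39 in occluded MCAs. The controls with the lowest and the highest Il1r1 value, F4 (8.30) and F22 (9.67), also had the lowest and the highest astrocyte sum. Other lists differed between them too, with macrophage sums of 66.12 (F4) and 74.07 (F22) and smooth muscle sums of 50.97 and 49.98. The part of these cells in the differences of the members was not tested. Of 6 smooth muscle markers, which define the tissue, 4 were measured. Myh11 and Tagln had control means of 12.95 and 13.25, on arrays with medians of 7.36 to 7.49. In the occluded MCAs Smtn fell by 0.68 and Des rose by 0.46 (limma adjusted p = 0.000328 and 0.00011), and the sum of the 4 ranged from 49.49 to 50.26, against 49.65 to 50.97 in control. Of 4 pericyte markers Kcnj8 and Abcc9 rose (1.73 and 1.07) and Pdgfrb fell by 1.08, and of 4 microglia markers P2ry12 and Cx3cr1 fell, by 1.16 and 0.79.

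The genes with the pattern most like each called member were taken by Pearson correlation over the 17 arrays, which share group differences and rats. For Il18bp these were Rela (r = 0.98), an NF-kappaB subunit, the sheddase gene Adam9 (0.98) and the galactosyltransferase gene B4galt1 (0.97). After the group means were removed, the correlations were 0.82, 0.70 and 0.72. The genes were picked as the highest of all genes on these same arrays, so all such correlations are description only. For Il1rl1 they were the leukocyte integrin gene Itgam (0.93), Dem1 (0.92) and the macrophage scavenger receptor gene Msr1 (0.90), with 0.86, 0.78 and 0.74 after the group means were removed. For Il1r1 they were Eps8 (0.92), which acts on the actin cytoskeleton, the galanin gene Gal (0.90) and Baiap2 (0.90), with 0.87, 0.82 and 0.89 after that step. For Il1rap they were Rad54l2, the chromatin remodeler gene Smarca5 and the lactate dehydrogenase gene Ldha, each at 0.87, with 0.72, 0.81 and 0.69 after it.

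Among other genes of the family, 3 of 11 listed were measured. Sigirr, an inhibitory receptor of the family, rose in the occluded MCAs by 0.88 and in the non-occluded MCAs by 0.54 on the log2 scale (limma adjusted p = 2.24e-05 and 0.0193). It was also higher in the occluded than in the non-occluded MCA by 0.34 (adjusted p = 0.0482). Il18rap, the accessory chain of the interleukin-18 receptor, rose by 0.46 in the occluded MCAs (adjusted p = 0.00532) and had 0.25 in the non-occluded MCAs (adjusted p = 0.258). Il1rl2, the receptor of interleukin-36, had -0.38 and 0.04 (adjusted p = 0.161 and 0.944).

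Of 12 measured genes that process and release the ligands, 3 rose in the occluded MCAs over control, 2 fell and 7 did not pass the test. These counts are near the background of all genes, of which 19.3% rose and 22.8% fell. The median log2 fold change of the 12 was 0.06. Casp4, the inflammatory caspase that senses intracellular lipopolysaccharide, rose from a mean of 7.77 in control to 10.26 in occluded MCAs and had 7.96 in non-occluded MCAs. Mmp9, a protease that can cut the interleukin-1 beta precursor, rose by 1.19 (standard error 0.26), and the channel gene Panx1 by 0.40 (standard error 0.081). Capn1, a calpain that can cut the interleukin-1 alpha precursor, fell by 0.54 (standard error 0.076). Pycard, the inflammasome adaptor, fell by 0.40 (standard error 0.13), and Casp1, which cuts interleukin-18, had 0.01 (standard error 0.16, adjusted p = 0.97). The last 2 genes were chosen after their values were seen. In the non-occluded MCAs 0 of the 12 passed limma, where 3.92% of all genes did.

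Of 21 measured genes of receptor signalling, 11 rose, 1 fell and 9 did not pass the test in the occluded MCAs over control. In this comparison 19.3% of all genes rose and 22.8% fell. Myd88, the adaptor of the receptors, had means of 7.88 in control, 8.44 in non-occluded and 9.89 in occluded MCAs. It rose by 2.01 in the occluded and by 0.55 in the non-occluded MCAs (limma adjusted p = 1.52e-10 and 0.00419). Map3k8, a kinase that the NF-kappaB1 precursor holds inactive, rose by 2.37 and 0.58 (adjusted p = 1.41e-11 and 0.00223). The kinase gene Irak4 rose by 0.98 and 0.41, and Irak3, which acts as a brake on the pathway, by 0.82 and 0.55. Peli2, an E3 ligase that modifies IRAK proteins, rose by 0.36 and 0.37, and between the 2 arteries it had -0.01 (adjusted p = 0.96). These 5 genes were the members of the list that rose in the non-occluded MCAs, and none of the 21 fell there. Among all genes 1.79% rose and 2.12% fell in that comparison. Irak2, Nfkb1 and Rela rose in the occluded MCAs by 0.62, 0.69 and 0.45, and had 0.03, -0.01 and 0.01 in the non-occluded MCAs. Tab1, a partner of the kinase TAK1, was the gene that fell, by 0.65. Between the 2 arteries 10 of the 21 genes rose and 2 fell, where 17.1% of all genes rose and 15.7% fell. The 2 that fell were Tab1 (-0.44, adjusted p = 0.000236) and Peli1 (-0.56, adjusted p = 0.00252).

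Of 30 genes listed as induced by interleukin-1, 19 were measured, and all 19 rose in the occluded MCAs over control, with a median log2 fold change of 2.15. All 19 were also higher in the occluded than in the non-occluded MCAs, with a median of 1.70. Of all genes, 19.3% rose over control and 17.1% rose between the arteries. The list was chosen with earlier results of these data known, so its direction is not independent evidence. Many of these genes also respond to tumour necrosis factor and other signals. The genes with the smallest p were the adhesion molecule gene Icam1 (2.07, standard error 0.099), the chemokine gene Ccl2 (5.51, standard error 0.27) and the NF-kappaB regulator Bcl3 (2.97, standard error 0.15). Among the 19 genes, 5 rose in the non-occluded MCAs, where 1.79% of all genes rose. They were Bcl3 by 0.94, Ptgs2 by 0.74, Sod2 by 0.67, Nfkbia by 0.59 and Icam1 by 0.38 (limma adjusted p = 0.00138, 0.0223, 0.0161, 0.021 and 0.0336). Mmp9 stands on both the list of processing and release and the list of induced genes, and is counted once in the next totals. Over the 4 lists together, 37 of 54 measured genes were called in the occluded MCAs and 11 in the non-occluded MCAs against control. Of all genes, 42.1% and 3.92% were called in either direction in these comparisons.

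**Figure D5:**
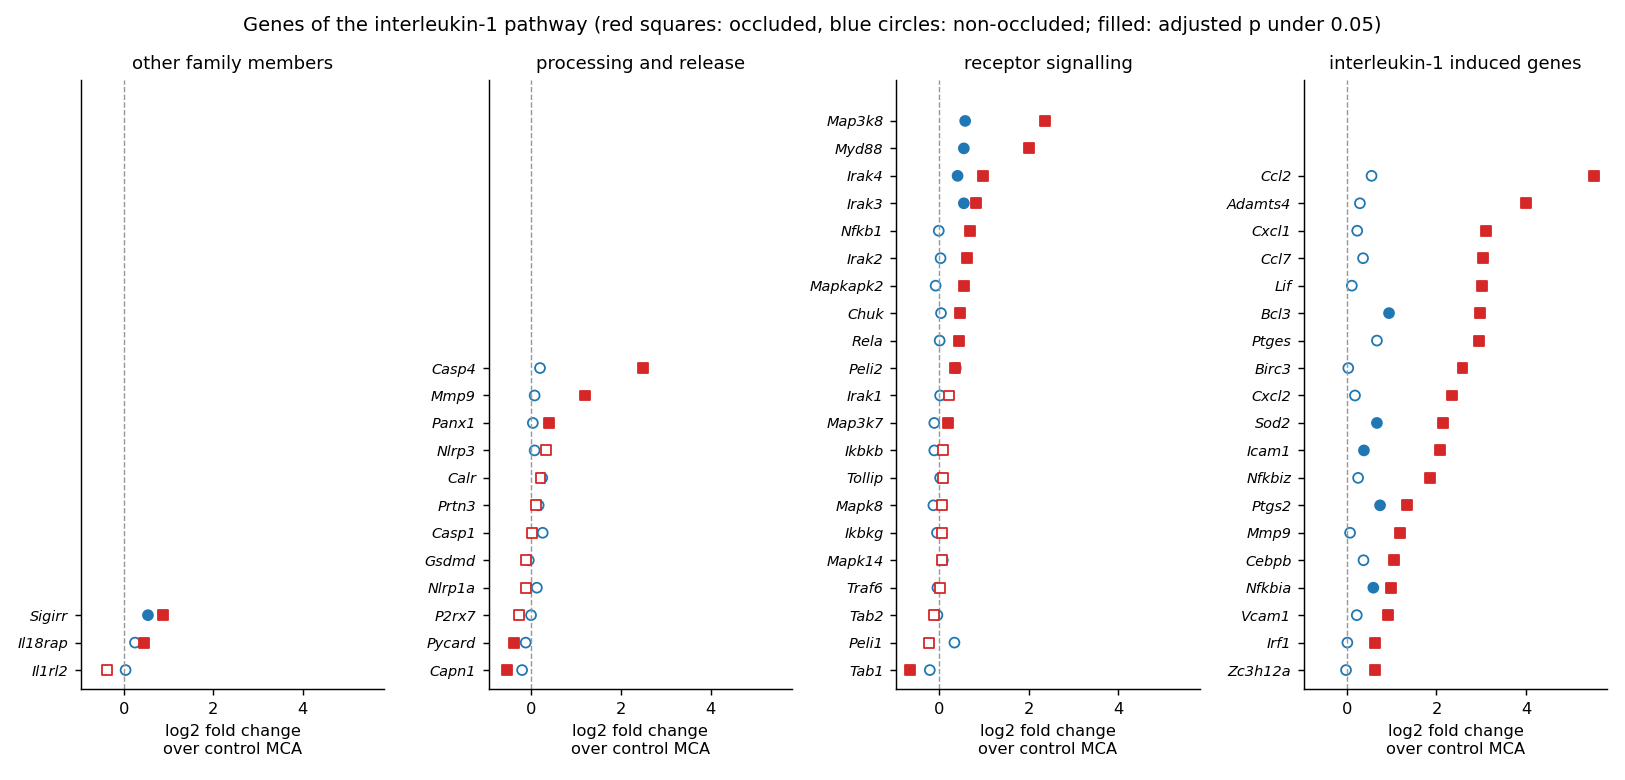
Log2 fold change over control MCA of the measured genes of 4 lists of the interleukin-1 pathway, in occluded (red squares) and non-occluded (blue circles) MCAs. Filled symbols had a limma adjusted p under 0.05. All 19 induced genes are filled in the occluded MCAs, and 12 genes of processing and release lie around a median of 0.06.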

How the data were processed

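RNA of 17 MCAs was hybridised to rat whole-transcript arrays, 1 array per artery. The authors made the deposited log2 values by robust multi-array averaging (background correction, quantile normalization) in Affymetrix Expression Console 1.1.2 and left out dim probe sets separately for each comparison. Deposited columns with the authors' own comparisons (p-value, fold change, SAM statistic) were not used. Of 14143 probe sets in the tables, the 13809 with values for all arrays entered the tests. No genome build of the array annotation is named in the sources used here.

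Groups came from the sample labels. The comparisons used limma 3.58.1 under R 4.3.3 (a mean per group over 17 arrays, 14 residual and 3.48 prior degrees of freedom), with Benjamini-Hochberg adjustment over all 13809 probe sets and a threshold of 0.05, after a check on simulated data. Gene counts used the brightest probe set of each of 13178 genes with a single symbol. Exact permutation tests, SAM and tables used scipy 1.17.1, numpy 2.4.6 and pandas 2.3.3 under Python 3.11.15. The number of arrays limits the precision. The labels name the same rat for both arteries in 5 rats, and their deviations from the group means correlated at 0.156 to 0.486 (median 0.351), against -0.294 to 0.327 for 25 pairs of different rats.

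The alternatives were SAM, an ordinary equal-variance test, an intensity trend, only 2 groups, replicate blocks, 2 scalings, 3 filters or sources of values, another gene summary, 2 stricter thresholds and leaving out each array. All 10 members are named. Other genes are named per list as the 3 with the smallest p for occluded against control plus any called in the non-occluded MCAs against control. Some further genes of the lists were named after their values were seen, and not every gene called between the arteries is named. For each called member 3 genes of like pattern are named. Members and lists were chosen with earlier results of these data known. A neutrophil and a microglia marker of the lists were left out of the sums and are not reported here.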

Additional observations from a re-analysis of the deposited data

Results flagged for a closer look

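The occluded MCA of rat F12 was the lowest of the 5 occluded arteries for Il18bp, at 8.26 on the log2 scale, with the next value at 8.76. It was the only lone array among 20 groups of a member examined, a rule that marks about 1 group in 20 by chance, and it still lay above every control and non-occluded artery. The same artery had the highest endothelial and the highest neutrophil marker sum of the occluded MCAs (42.90 and 18.55).

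The change over control differed between the arteries for Il18bp, by 1.21 on the log2 scale (limma adjusted p = 7.02e-07, higher in the occluded artery of 5 of 5 rats), and for Il1rap, by 0.37 (adjusted p = 0.024, higher in 4 of 5 rats). Both use the same 6 controls, so each difference equals the direct comparison of the arteries.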

How the results depend on the processing

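Of 563 values of a member under an alternative, 537 kept their direction and side of the threshold, 11 lost and 11 gained the call, and 4 changed sign. SAM called 1 member instead of 4 in the occluded MCAs against control and 1 instead of 2 between the arteries, where an adjusted p under 0.01 and a minimum of 1.5-fold also gave 1. Between the arteries SAM called 1000 probe sets higher and 481 lower of 13809. With the rat as a fixed replicate block 4 members were called between the arteries, and the share of all genes called with that block was not counted. Leaving out single arrays gave 4 to 5, 0 and 1 to 3 members for occluded against control, non-occluded against control and between the arteries. For the 4 pathway lists in the non-occluded MCAs, 11 calls became 5 at an adjusted p under 0.01, 4 at 1.5-fold and 6 with SAM, and 8 to 11 without single arrays. The values that changed sign belonged to members that were not called. Leaving out single arrays gave -0.22 (without control F4) to 0.43 for Il18 in the occluded MCAs against control. For Il33 between the arteries it gave -0.35 to 0.06, with values above 0 without non-occluded F33 (0.02) and without occluded F10 (0.06) and F15 (0.01). The cause was not tested.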
